A study of Mus musculus with 8 samples.

Results

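Aminoacyl-tRNA synthetases are the enzymes that load each amino acid onto its tRNA, and every round of protein synthesis draws on them. Most amino acids have 1 nuclear gene for the enzyme of the cytosol and a second nuclear gene, whose symbol ends in 2, for the enzyme that is imported into mitochondria. Several cytosolic synthetases sit in the multisynthetase complex, which is held together by the scaffold proteins that Aimp1 and Aimp2 encode. The genes described here were chosen by symbol, and their choice drew on their differences between HU210 and DMSO, so those differences are given as a description with no test. The symbols matched 40 of the 16974 genes in the table of expression values. Of these, 23 are cytosolic, Aimp1 and Aimp2 included, and 17 are mitochondrial, and Lars2, the mitochondrial leucyl-tRNA synthetase, stands first among them by level and by change.

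The cells were N2A (Neuro 2A), a mouse neuroblastoma line, and the drug was HU210, an agonist of the cannabinoid 1 receptor (CB1R) that elicits neurite outgrowth in these cells. The cultures were kept for 16 h without serum and then given either 2 µM HU210 or DMSO with no drug for 2, 4, 6 or 8 h, which makes 8 conditions. Each condition is 1 library, made from the mRNA of 2 to 3 experiments pooled before sequencing, so no comparison of HU210 with DMSO within a time point has a replicate check. Levels are FPKM (fragments scaled to the length of the transcript and to the size of the library), and a change is the log2 of (FPKM in HU210 + 1) over (FPKM in DMSO + 1), which understates the change of low genes. A gene past 1.3-fold has a log2 change of at least 0.38 in size. The table holds no read counts per gene, and the total reads that the study states for each library were not carried over to single genes here, so levels are given without a counting error. Each table of 2 libraries lists 16372 to 16557 genes.

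All 40 members were listed in all 8 libraries, each with an FPKM of at least 1 in every library. They were read against the 11311 genes of the table that were listed in all 8 libraries with a mean FPKM of at least 1. Of 13 neuronal and neuroblastoma markers, Stmn2, Snap25, Chga, Gap43 and Hand2 were between 36.6 and 157 FPKM in every library, whereas Dcx was at most 0.0864 FPKM, Nefl and Nefm were listed at 4 h only and near 0, and Tubb3 was not listed. The 6 listed markers of glia, endothelium, fibroblasts and macrophages summed to between 2.72 and 3.67 FPKM in each library.

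Apart from Lars2, the cytosolic genes were the abundant ones. The mean level over the 8 libraries was a median of 87.1 FPKM for the 23 cytosolic members and of 10.4 FPKM for the 16 mitochondrial members other than Lars2. Gars, the glycyl-tRNA synthetase whose single gene serves both compartments, was the highest cytosolic member at a mean of 304 ± 38.4 FPKM (SD over the 8 libraries, n = 8). Nars and Sars, for asparagine and serine, followed at means of 194 and 190 FPKM, and their ranges over the 8 libraries overlapped. Tarsl2, a second threonyl-tRNA synthetase gene, was the lowest cytosolic member at 9.74 ± 2.18 FPKM (SD, n = 8), in the range of the mitochondrial members. At the low end, Wars2 (tryptophan) had a mean of 2.58 FPKM and Pars2 (proline) of 2.95 FPKM, again with overlapping ranges.

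Because FPKM is scaled to transcript length, the cytosolic and mitochondrial enzymes for the same amino acid can be set side by side, and 17 such pairs were formed. In 16 of the 17 pairs the cytosolic gene was higher in all 8 libraries, with a mean ratio between 2.97 and 44.8. The ratio was smallest for histidine, at 2.97 ± 0.309 (SD, n = 8) for Hars over Hars2. It was largest for proline, where the bifunctional Eprs, which charges both glutamate and proline, was 44.8 ± 8.89 times as high as Pars2. Leucine was the exception, with Lars at 0.0949 ± 0.0574 times the level of Lars2, and at most 0.191 times in any library.

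**Figure D1:**
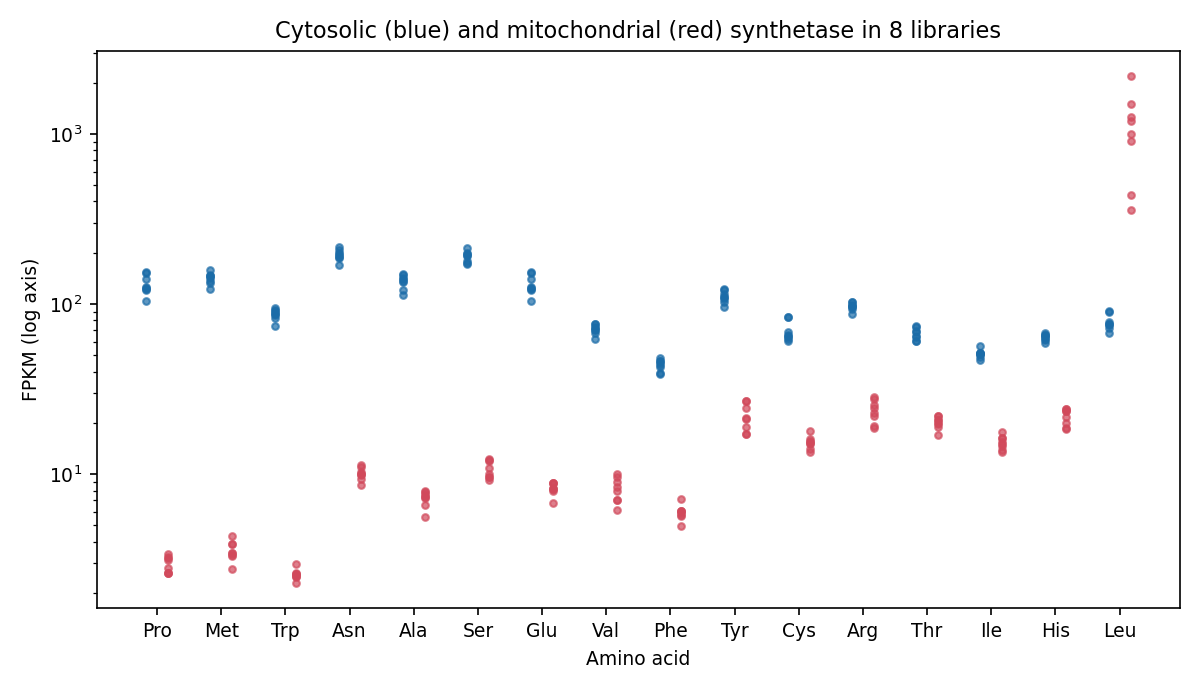
FPKM on a log axis of the cytosolic (blue) and mitochondrial (red) synthetase for each of 16 amino acids, 1 point per library, ordered from the largest to the smallest mean ratio. In every pair but that of leucine the blue points sit above the red ones, and Lars2 spans 355 to 2183 FPKM. Eprs is drawn for both proline and glutamate, and Farsa stands for phenylalanine.

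Lars2 (mm9, chr9:123276058-123371782, plus strand) was at a mean of 1105 FPKM, 106 times the median of the other mitochondrial members. In DMSO it was at 906 FPKM after 2 h, 2183 after 4 h, 1257 after 6 h and 1002 after 8 h. In HU210 it was at 355 FPKM after 2 h, 438 after 4 h, 1506 after 6 h and 1193 after 8 h. The 2 h and 4 h HU210 libraries lay below all 4 DMSO libraries, and the 6 h and 8 h HU210 libraries lay within their range.

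The log2 change of Lars2 was -1.35 at 2 h and -2.32 at 4 h, that is 2.55-fold and 4.98-fold lower in HU210. It was 0.26 at 6 h and 0.25 at 8 h. The size at 4 h rests partly on the DMSO library of that time, the highest of the 8. Set against the DMSO libraries of 2 h, 6 h and 8 h in its place, a reference chosen after the values were seen, the change at 4 h was -1.25. Lars2 made up between 65.4% and 91.9% of the summed FPKM of the mitochondrial members, so any sum over that class is mostly Lars2. Without it, the sum of the 16 others was between 176 and 198 FPKM in the DMSO libraries and between 183 and 194 FPKM in the HU210 libraries.

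The 3′ end of the Lars2 transcript holds letters that occur elsewhere in the genome. Of its 3251 exonic words of 31 bases, 230 (7.07%) were found at other places in mm9, and all of them lay in a stretch of 384 bases (chr9:123370918-123371301) inside the 3′ UTR. Matches to parts of this stretch were found at 17 other places on 12 chromosomes, none of them on the mitochondrial chromosome. A window of 30 bases at its end is shown because its capitals, AGTACGAGA, are the letters of the sarcin-ricin loop, a universally conserved element of the RNA of the large ribosomal subunit. The window is on the plus strand at chr9:123371277-123371306.
Lars2 3′ UTR: aatcctgctcAGTACGAGAggaaccgcagc
No ribosomal RNA sequence was compared with the stretch, so how much the 2 share beyond these 9 letters is not known here. Of the words of 31 bases that span these letters, 7 were found elsewhere in mm9, at 1 place. Any reads from ribosomal RNA that match the stretch cannot be told apart from reads of Lars2 here, and their part in its level was not tested. Among the other members, 29 had under 2% of their words elsewhere, and Iars, the cytosolic isoleucyl-tRNA synthetase, had the largest share at 16.9%.

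Over the 8 libraries the level of Lars2 moved with those of many histone genes. On the log2(FPKM + 1) scale, 23 of the 49 histone genes described below had a Pearson r with Lars2 of at least 0.9. Over all 11310 genes compared, 101 did. The median r was 0.89 for the 49 histone genes and 0.20 for all genes. The 5 genes with the highest Pearson correlation with Lars2 on the log2(FPKM + 1) scale, over 8 libraries and 11310 genes, were Nme2 (r = 0.98), the histone genes H4c2 (0.98), H2bc3 (0.98) and H4c6 (0.97), and Zfp952 (0.97). The lowest were Rpl34-ps1 and Dimt1, both at -0.98. H4c2 was at 6.36, 8.73, 6.88 and 5.59 FPKM in DMSO and at 3.07, 3.71, 7.44 and 6.08 FPKM in HU210 at the 4 times in order, so, like Lars2, it was below all 4 DMSO libraries in HU210 at 2 h and 4 h. Among the other members, r ran from -0.89 for Vars2 to 0.93 for Iars, with a median of 0.12. These correlations describe 8 libraries that share their scaling and their 2 factors.

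Most replication-dependent histone mRNAs end in a stem-loop and not in a poly(A) tail, and the libraries were made from mRNA captured on oligo(dT) beads. Of 49 histone genes chosen by symbol after the values were seen, 32 were lower in HU210 by 1.3-fold at 2 h, where 3.91% of the 11311 genes were. At 4 h 33 were lower and 3 higher, where 19.9% and 8.96% of all genes were. At 6 h and 8 h none was lower by 1.3-fold, where 1.72% and 1.44% of all genes were. By 1.3-fold 5 and 3 were higher, where 6.38% and 4.38% of all genes were. By any amount 46 and 45 of the 49 were higher, against 7416 and 7075 of the 11311 genes. The summed level of the 49 histone genes in HU210 was 0.736, 0.765, 1.18 and 1.14 times that in DMSO at the 4 times in order. Rmrp, the RNA of the RNase MRP ribonucleoprotein and likewise not polyadenylated, was at 609, 769, 597 and 579 FPKM in DMSO and at 369, 206, 631 and 541 FPKM in HU210 after 2, 4, 6 and 8 h. Its change was -0.72 at 2 h and -1.90 at 4 h, and it was the only listed gene of 10 ribosomal RNA loci and related small RNAs that were looked up. Whether the capture of RNAs without a poly(A) tail had a part in the change of Lars2 was not tested.

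**Figure D2:**
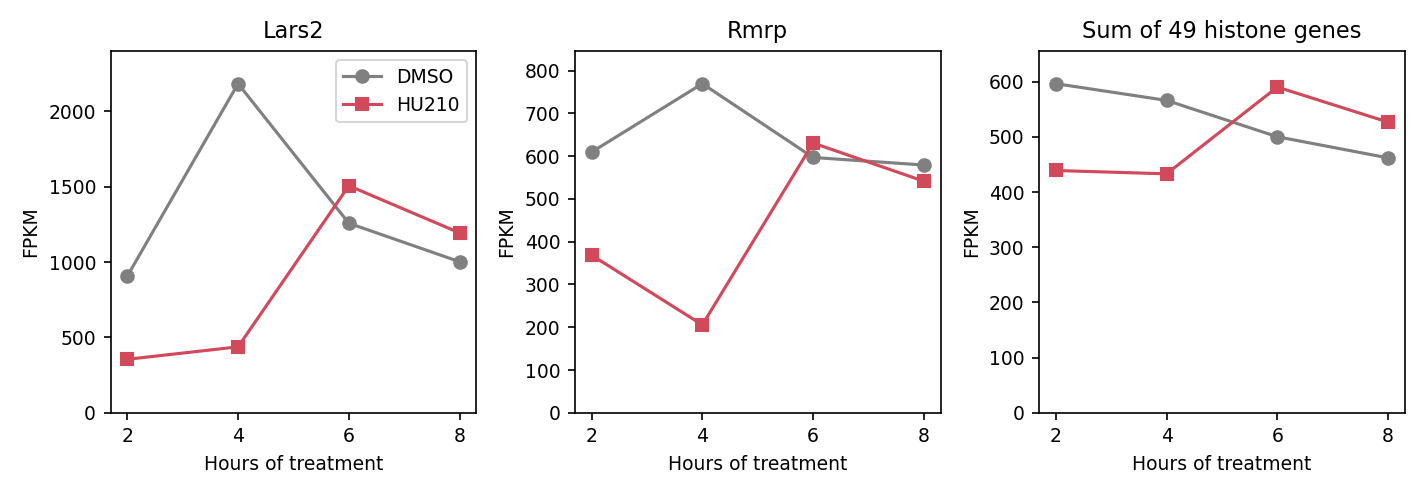
FPKM of Lars2, of Rmrp and of the sum of 49 histone genes against hours of treatment, 1 library per point, DMSO in grey and HU210 in red, each axis starting at 0. In all 3 panels the HU210 point lies below the DMSO point at 2 h and 4 h, and for Lars2 and the histone sum it lies above at 6 h and 8 h.

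The other members moved far less than Lars2. Between its highest and lowest library, Lars2 differed 6.15-fold, whereas the other 39 members differed between 1.14-fold for Hars and 1.94-fold for Tarsl2, with a median of 1.31-fold. Over the 4 time points, 30 of the 40 members stayed within 1.3-fold of DMSO throughout, 18 of them cytosolic and 12 mitochondrial. The 10 that passed 1.3-fold at 1 or more time points (25.0%) compare with 35.2% of all 11311 genes. Among those 10 were Lars2, the cytosolic Aimp1, Dars, Eprs, Gars and Tarsl2, and the mitochondrial Aars2, Vars2 and Yars2.

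At 2 h the members were mostly a little lower in HU210. The median change was -0.10 for the cytosolic members, of which 22 of 23 were lower, -0.04 for the mitochondrial members and -0.05 for all 11311 genes. Over both classes 34 of 40 members (85%) were lower by any amount, against 64.0% of all genes. With the 2 libraries centred to a median change of 0 over all genes, a shift of 0.05, 22 of 40 members (14 of them cytosolic) and 5655 of 11311 genes were lower, and the median was -0.04 for the cytosolic and 0.01 for the mitochondrial members. By 1.3-fold, 4 members were lower, Lars2, Aimp1 and Dars among them, where the background was 3.91% of all genes, and 0 were higher, where it was 1.49%. The HU210 level lay outside the range of the 4 DMSO libraries for 19 members, with a background of 39.7%. It lay below that range for 14 members and 2706 of the 11311 genes, and above it for 5 members and 1781 genes.

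At 4 h the members spread out in both directions. The median change was 0.06 for the cytosolic and 0.05 for the mitochondrial members, against -0.08 for all genes. Lower by 1.3-fold were 6 members, Lars2, Tarsl2, Yars2, Gars, Eprs and Dars, with a background of 19.9%, and higher were 2, Vars2 and Aars2, with a background of 8.96%. Outside the DMSO range lay 15 members, with a background of 43.5%. Of the members 9 lay above and 6 below, where 1987 of the 11311 genes lay above and 2929 below. The DMSO library of 4 h was the highest or the lowest of the 4 DMSO libraries for 67.5% of the members and 62.7% of all genes. Against the DMSO libraries of the other 3 times, the members lower by 1.3-fold at 4 h numbered 1, which was Lars2, and those higher 0. The share of all genes on this reference was not computed, and the backgrounds above belong to the DMSO library of 4 h. With the average of all 4 DMSO libraries as the reference, 2 members were lower and 0 higher. On that reference 640 of the 11311 genes were lower and 234 higher.

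At 6 h and 8 h few members were past the cutoff. At 6 h only Tarsl2 was higher by 1.3-fold, with a background of 6.38%, and 0 were lower, with a background of 1.72%. At 8 h 1 member was lower, with a background of 1.44%, and 0 were higher, with a background of 4.38%. The medians were -0.01 and 0.05 for the cytosolic members, 0.11 and 0.04 for the mitochondrial members and 0.06 and 0.04 for all genes at 6 h and 8 h. Outside the DMSO range lay 8 members at 6 h and 7 at 8 h, with backgrounds of 28.2% and 22.8%. All 7 at 8 h lay above it, where 1661 of the 11311 genes lay above and 916 below.

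**Figure D3:**
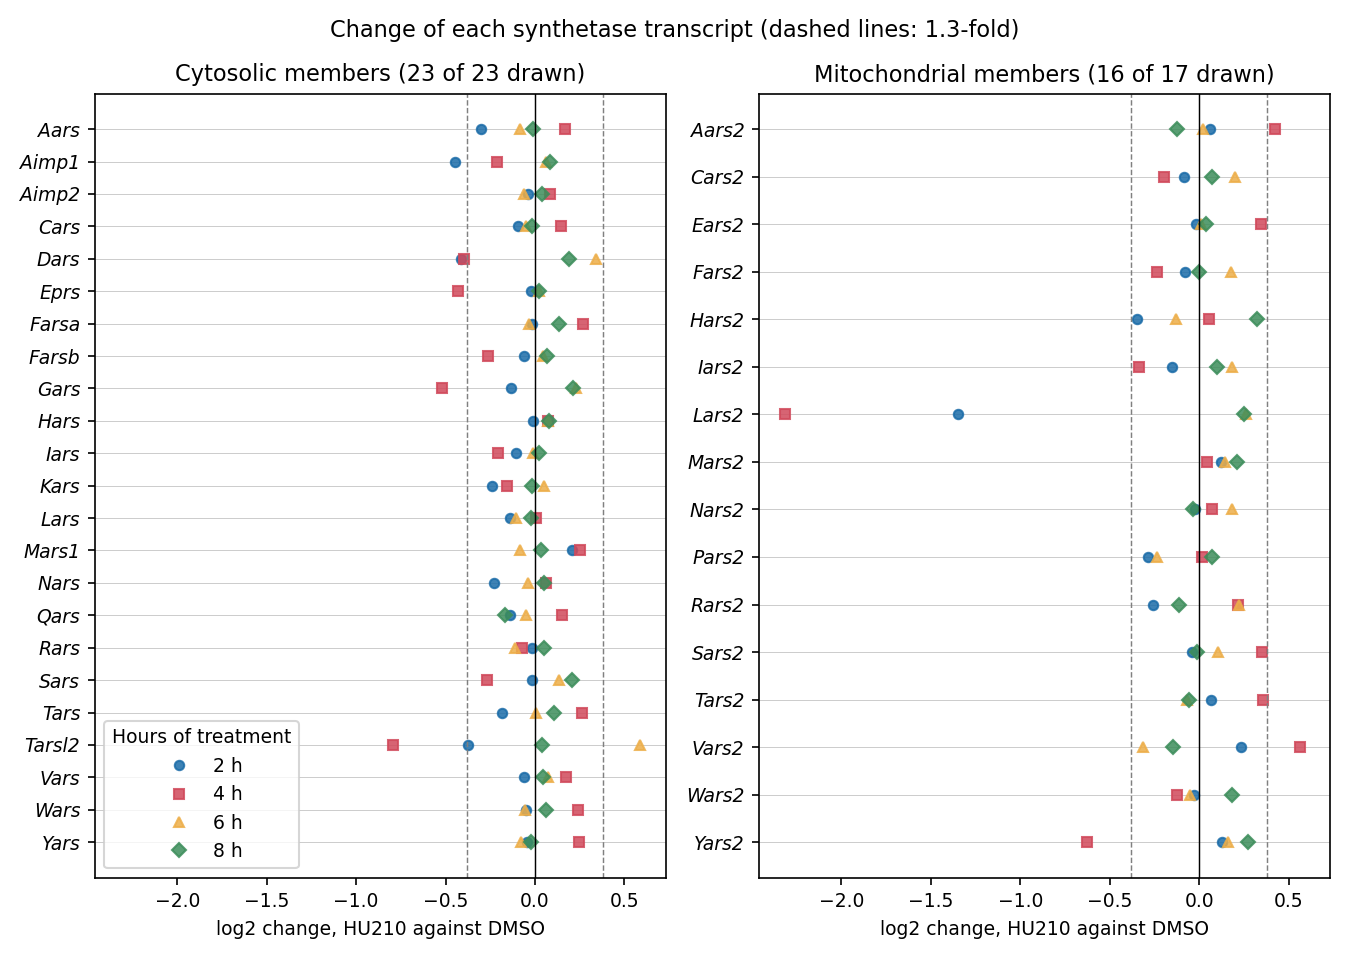
log2 change of 39 members in HU210 against DMSO at each of the 4 time points, cytosolic members on the left and mitochondrial members on the right, with dashed lines at 1.3-fold. Most points lie between the dashed lines, and Lars2 lies far to the left at 2 h (-1.35) and 4 h (-2.32).

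The cytosolic enzymes past the cutoff were lower early. Tarsl2 was at 11.2, 13.6, 7.01 and 9.51 FPKM in DMSO after 2, 4, 6 and 8 h and at 8.40, 7.42, 11 and 9.79 FPKM in HU210. Its HU210 levels stayed within the range of the DMSO libraries at all 4 times, since its DMSO level itself ran from 7.01 to 13.6 FPKM. The change was -0.37 at 2 h, -0.79 at 4 h and 0.59 at 6 h. With the average of all 4 DMSO libraries as the reference, it was -0.39 at 4 h and 0.12 at 6 h. Of its exonic bases, 120 are shared on the same strand with Tm2d3, whose reads could be counted for either gene.

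Gars was at 320, 371, 258 and 291 FPKM in DMSO and at 292, 259, 303 and 338 FPKM in HU210. Its change at 4 h was -0.52, but the HU210 library of 4 h, at 259 FPKM, was no lower than the DMSO library of 6 h, at 258 FPKM. Eprs, a member of the multisynthetase complex, was at 123, 141, 124 and 151 FPKM in DMSO and at 121, 104, 126 and 154 FPKM in HU210. The HU210 library of 4 h was the lowest of all 8 for Eprs, with a change of -0.43.

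Dars, the aspartyl-tRNA synthetase of the complex, was at 71.9, 79.5, 56.5 and 62.0 FPKM in DMSO and at 53.8, 60.2, 71.9 and 70.7 FPKM in HU210. Its change was -0.41 and -0.40 at 2 h and 4 h and 0.34 and 0.19 at 6 h and 8 h, and below all DMSO libraries it lay at 2 h only. Aimp1 was at 109, 117, 92.4 and 102 FPKM in DMSO and at 79.9, 101, 96.4 and 109 FPKM in HU210, with a change of -0.45 at 2 h, the most negative of the cytosolic members at that time. On the other side, Mars1, the methionyl-tRNA synthetase, was the only cytosolic member higher in HU210 at 2 h, at 158 FPKM against 137 FPKM, a change of 0.21. It shares 68 exonic bases with Ddit3 on the opposite strand. Farsa, a subunit of the phenylalanyl-tRNA synthetase, had the largest cytosolic increase at 4 h (0.27). The most negative cytosolic changes at 6 h and 8 h were those of Rars (-0.11) and Qars (-0.16), and Gars had the most positive at 8 h (0.21).

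The 10 members of the multisynthetase complex (Aimp1, Aimp2, Dars, Eprs, Iars, Kars, Lars, Mars1, Qars and Rars) were summed and set beside the rest. Their median change was -0.12, -0.11, -0.03 and 0.03 at 2, 4, 6 and 8 h, and that of the 13 other cytosolic members was -0.06, 0.15, 0.00 and 0.06. Their summed level was between 926 and 1022 FPKM in the DMSO libraries and between 911 and 1035 FPKM in the HU210 libraries.

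Among the mitochondrial enzymes, Yars2, for tyrosine, had the largest change after Lars2. It was at 24.4, 26.9, 19.04 and 17.3 FPKM in DMSO and at 26.7, 17.1, 21.4 and 21.1 FPKM in HU210, a change of -0.63 at 4 h, where HU210 was just below the lowest DMSO library. At the other times its change was positive, between 0.13 and 0.27. With the average of all 4 DMSO libraries as the reference, the change at 4 h was -0.32, short of 1.3-fold.

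Vars2 and Aars2, for valine and alanine, were higher in HU210 at 4 h. Vars2 was at 8.40, 6.15, 8.97 and 7.94 FPKM in DMSO and at 10.0, 9.58, 7.02 and 7.07 FPKM in HU210, with changes of 0.23, 0.56, -0.31 and -0.15, the largest mitochondrial increase at 2 h and at 4 h. Its HU210 libraries of 2 h and 4 h lay above all 4 DMSO libraries, and it was the lowest mitochondrial member by change at 6 h. Aars2 was at 7.63, 5.62, 7.33 and 7.22 FPKM in DMSO and at 8.00, 7.90, 7.45 and 6.54 FPKM in HU210, a change of 0.43 at 4 h, where the DMSO library was the lowest of the 4 and the HU210 library lay above all of them. On the averaged DMSO reference the changes at 4 h were 0.27 for Vars2 and 0.17 for Aars2, both short of 1.3-fold.

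Mars2, for methionine, was the only member higher at all 4 times, with changes of 0.12, 0.05, 0.15 and 0.21, none past 1.3-fold. Hars2, which shares 195 exonic bases with Hars on the opposite strand, had the largest mitochondrial increase at 8 h, at 23.3 FPKM against 18.4 FPKM (0.33).

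**Figure D4:**
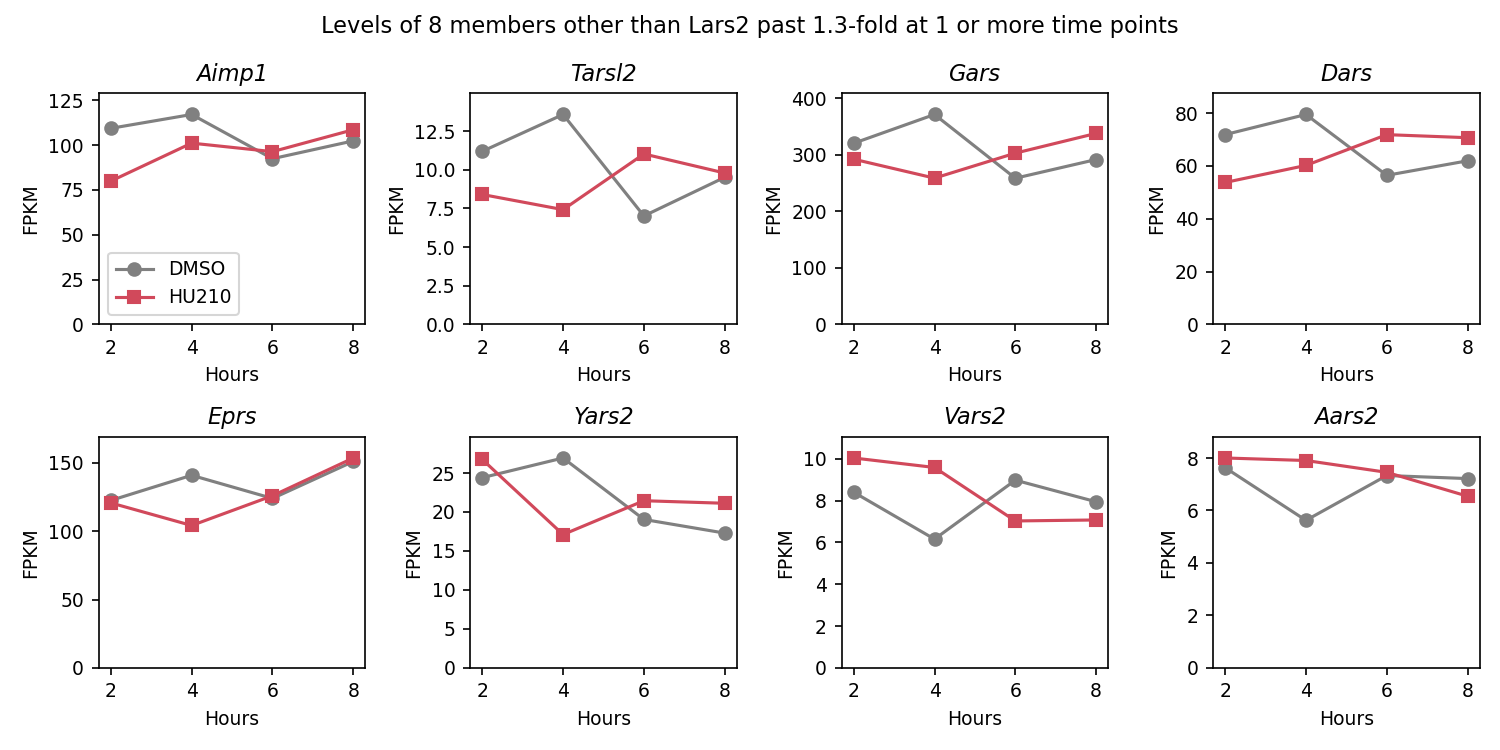
FPKM against hours of treatment for 8 members other than Lars2 that passed 1.3-fold at 1 or more time points, 1 library per point, DMSO in grey and HU210 in red, each axis starting at 0. Tarsl2, Gars and Dars cross from lower to higher in HU210 between 4 h and 6 h, and Vars2 crosses the other way.

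A course of lower at 2 h and 4 h and higher at 6 h and 8 h was shared by 11 of the 40 members (27.5%) and by 25.1% of all 11311 genes. The changes at 4 h and 6 h had opposite signs in 67.5% of the members and in 71.1% of all genes. Over all 11311 genes the change at 4 h rose with the GC content of the exons (Spearman 0.50), and over the 40 members the same correlation was 0.45. At 6 h the sign turned, to -0.27 over all genes and -0.13 over the members. These are correlations across genes within a pair of libraries, and genes are not independent replicates. Of the members lower by 1.3-fold at 4 h, Dars (41.7%), Eprs (45.1%), Yars2 (45.1%) and Tarsl2 (45.5%) were poor in GC. Gars (50.3%) and Lars2 (51.2%), also lower, had more of it. Those higher by 1.3-fold, Vars2 (58.4%) and Aars2 (60.01%), were rich in it. Once the trend of all genes on GC content and length was taken out, Tarsl2 (-0.54), Gars (-0.45) and Lars2 (-2.27) stayed lower by 1.3-fold at 4 h, and Yars2 (-0.37), Eprs (-0.16) and Dars (-0.12) did not. Of the members higher at 4 h, Vars2 (0.42) stayed past 1.3-fold and Aars2 (0.26) did not. The members higher by 1.3-fold numbered 5 in place of 2, where 1122 of the 11311 genes were higher in place of 1014. The members lower by 1.3-fold numbered 3 in place of 6, where 1136 of all genes were lower in place of 2251. The part of GC content in the changes was not tested.

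**Figure D5:**
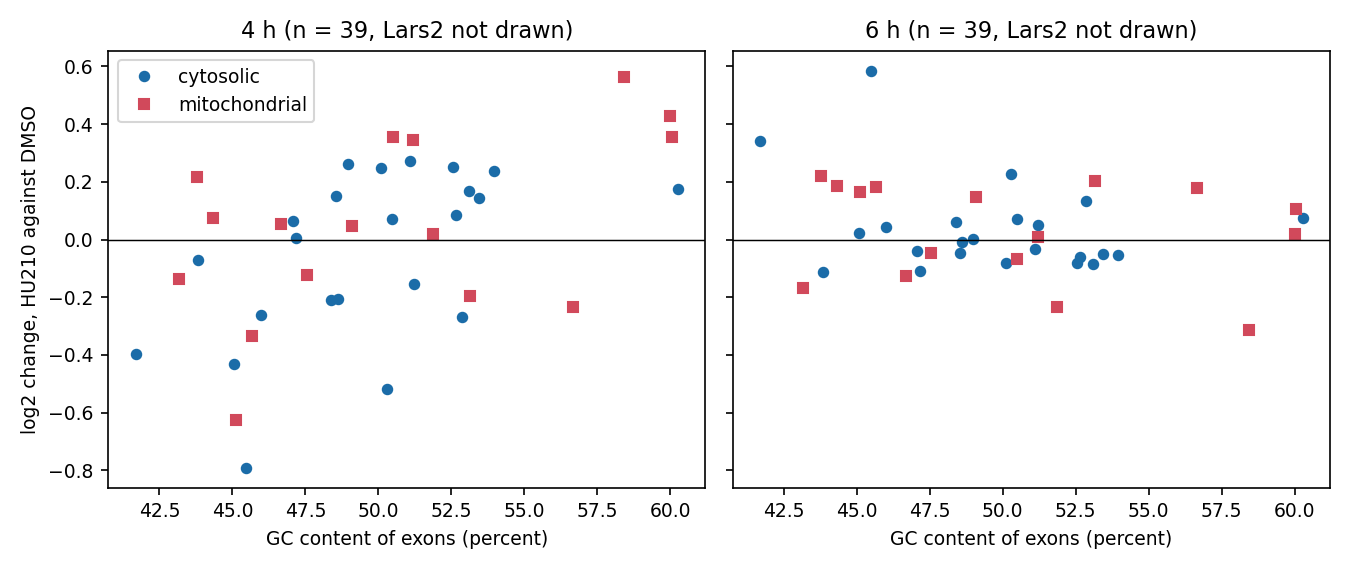
log2 change in HU210 against DMSO at 4 h (left) and 6 h (right) against the GC content of the exons in percent, for the 39 members other than Lars2, cytosolic in blue and mitochondrial in red. At 4 h the members with the lowest GC content lie mostly below 0 and those with the highest mostly above it, and at 6 h the slope is reversed and weaker.

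The level of the members across hours, a measure the choice of genes did not use, was fitted in limma over all 8 libraries with treatment as a covariate and Benjamini-Hochberg adjustment over 11311 genes. With an adjusted p under 0.05, 0 of 40 members and 0 of 11311 genes rose or fell with hours, a background of 0%. At an unadjusted p under 0.05 there were 3 members with a positive slope, Cars and Lars among them, and 3 with a negative slope (Aimp2, Mars2 and Sars2), against 663 and 655 of all genes. The smallest adjusted p of limma among the members was 0.31, for Aimp2, whose level at 8 h was 0.818 times that at 2 h by the fit. Lars2 had a fitted log2 difference of 0.999 ± 0.581 (SE) between 2 h and 8 h, with a limma adjusted p of 0.55. The fit gave both treatments 1 shared slope, so this difference describes neither treatment alone. Between 2 h and 8 h Lars2 went from 906 to 1002 FPKM in DMSO and from 355 to 1193 FPKM in HU210.

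Promoters of some members hold a short sequence that the transcription factor ATF4 and its partners are known to bind. Such binding is known for cells short of amino acids or with a stressed endoplasmic reticulum. RefSeq promoters (GRCm38.p6, 250 bases before to 50 after the start) were matched by symbol for 30 of the 40 members, 16 cytosolic and 14 mitochondrial. The other 10, the cytosolic Cars, Hars, Lars, Nars, Rars, Vars and Wars among them, had no promoter under these symbols and were not searched. The letters TGATGCAA, searched on both strands, were in the promoters of 4 of the 16 cytosolic members, Aars, Iars, Tars and Yars, and of 0 of the 14 mitochondrial members. Counted in the same way, with any promoter of a gene, they were found for 1.03% of the 27025 genes with a promoter. With the sixth letter free (TGATGNAA), which includes all of these matches, Gars was added and the share of all genes with a promoter was 4.51%. A match is a description of these letters and not a shown site of binding. The windows of 30 bases shown for Iars, Tars, Yars and Gars are on the strand of the gene, with the 8 letters in capitals. The match is on the opposite strand in Iars, Tars and Gars, so that the capitals read TTGCATCA in Iars and Tars and TTTCATCA in Gars.
Iars (chr13:49682126-49682155): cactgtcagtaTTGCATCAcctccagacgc
Tars (chr15:11399655-11399684, minus strand): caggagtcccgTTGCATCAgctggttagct
Yars (chr4:129189895-129189924): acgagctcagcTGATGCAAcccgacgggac
Gars, with the freer letters (chr6:55037960-55037989): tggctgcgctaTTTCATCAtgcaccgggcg

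The 4 genes with TGATGCAA stayed within 1.3-fold of DMSO, where 35.2% of all 11311 genes passed it at 1 or more time points. The median change of these 4 was -0.14, 0.21, -0.04 and 0.01 at 2, 4, 6 and 8 h. Their changes lay between -0.30 (Aars at 2 h) and 0.26 (Tars at 4 h). For the 12 matched cytosolic members without the letters, the median was -0.10, -0.24, 0.05 and 0.05. The difference between these sets was not tested. Yars was at 110, 95.6, 109 and 123 FPKM in DMSO and at 107, 114, 103 and 121 FPKM in HU210, so its HU210 levels were within the DMSO range at all 4 times. Aars was at 139, 121, 142 and 150 FPKM in DMSO and at 113, 136, 134 and 149 FPKM in HU210, and only its 2 h HU210 library lay below the DMSO range.

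Of 19 genes listed for the amino acid response, 18 were in the table. Among them 0 passed 1.3-fold at 2 h, where 1.49% of all genes were higher and 3.91% lower. At 6 h 0 passed it, where 6.38% of all genes were higher and 1.72% lower. At 4 h 5 were higher (background 8.96%) and 1 was lower (19.9%), and at 8 h 1 was higher (4.38%). Atf4 itself was between 491 and 604 FPKM in all 8 libraries, with changes between -0.06 and 0.13. Asns, the asparagine synthetase, was the gene that was lower at 4 h, at 475 FPKM against 649 FPKM (-0.45), and Chac1, Phgdh and Shmt2 were among those higher, at 0.66, 0.58 and 0.42. The HU210 level of Asns at 4 h was still above the DMSO library of 6 h, at 457 FPKM. For all 5 genes higher at 4 h, the DMSO library of 4 h was the lowest of the 4 DMSO libraries. In HU210 at 4 h, Chac1, Phgdh and Psph lay above all 4 DMSO libraries. Shmt2 (171.5 FPKM) and Slc7a11 (48.2 FPKM) lay within the DMSO range, below their DMSO libraries of 2 h (175 and 48.9 FPKM).

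The genes that work beside the synthetases mostly stayed within 1.3-fold. Of 10 listed partners of tRNA charging, which include the mitochondrial amidotransferase subunits Gatb, Gatc and Qrsl1, 1 was lower by 1.3-fold at 2 h (background 3.91%), 1 at 4 h (19.9%), and 1 was higher at 6 h (6.38%). The gene lower at 2 h was Eef1e1, a further protein of the multisynthetase complex, at 40.4 FPKM against 53.5 FPKM (-0.39). Of 22 genes for tRNA maturation, export and modification, all were listed at 4 h and 21 of them at the other times. By 1.3-fold 4 were higher (8.96%) and 2 lower (19.9%) at 4 h, and 1 was higher at 6 h (6.38%). At 2 h 0 passed, where 1.49% of all genes were higher and 3.91% lower. At 8 h 0 passed, where 4.38% of all genes were higher and 1.44% lower. Tsen15, a subunit of the tRNA splicing endonuclease, was the only gene of these 2 lists past 1.3-fold at 2 time points, with -0.53 at 4 h and 0.39 at 6 h. It was at 41.3 FPKM in DMSO and 28.2 in HU210 at 4 h, and at 21.2 and 28.1 FPKM at 6 h, so its level in HU210 was nearly the same at both times.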

How the data were processed

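The 8 mRNA libraries were grouped by the labels. The authors mapped the reads to mm9 with Bowtie2 2.1.0, TopHat2 2.0.8 and SAMtools 0.1.7. They computed FPKM in Cuffdiff (Cufflinks, version not given in the sources used here). The options they state are upper-quartile normalization, correction for reads that map to several places and correction for fragment bias. The authors deposited FPKM with 1 added, which was subtracted here. The deposited log2 fold changes, p-values, q-values and the table of DEGs are the authors' own comparisons and were not used. Whether counting used strand is not given in the sources used here, and 13 members share exonic bases with another gene.

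The members and lists were chosen with earlier results of these data known. Named are Lars2, the largest change in each class and direction per time point, members past 1.5-fold at any time, the 5 highest and 2 lowest correlates of Lars2, listed genes past 1.3-fold at 2 or more times, and single genes chosen after their values were seen. Results of 1 member and of 1 promoter window are not reported here. Changes were computed on log2(FPKM + 1). The fit on hours used limma 3.58.1 in R 4.3.3 (empirical Bayes with trend, mean FPKM of at least 1) and was tested on simulated data. Positions, GC content and 31-base words come from GENCODE vM1 on mm9. The alternatives were a pseudocount of 0.1, the mean of the 4 DMSO libraries as the reference, centring, removal of the loess trend on GC content and length, a cutoff of 1.5-fold and, added later, the median without Lars2 and the change at 4 h against the other DMSO libraries. Other values came from Python 3.11.15.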

Additional observations from a re-analysis of the deposited data

Results flagged for a closer look

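In 7 members that passed 1.3-fold at 1 or more time points, the change had 1 sign at both 2 h and 4 h and the opposite sign at both 6 h and 8 h. The difference between the mean log2 change of the late and of the early time points was not tested, since each condition is 1 library. It was 2.09 for Lars2, 0.89 for Tarsl2, 0.67 for Dars, 0.55 for Gars, 0.40 for Aimp1 and 0.25 for Eprs, all lower in HU210 early and higher late. For Vars2 it was -0.63, from higher early to lower late. Without a fold cutoff, the early-to-late course from lower to higher was seen in 27.5% of the 40 members and in 25.1% of all 11311 genes. The shares of all genes past 1.3-fold with this course, or with that of Vars2, were not computed.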

How the results depend on the processing

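Of 125 comparisons with an alternative, 105 stayed close to the reported value, and 20 moved. Lars2 kept its direction at 2 h, 4 h and 6 h under every alternative run. Its change at 4 h was -1.52 with all 4 DMSO libraries averaged as the reference and -1.25 with those of the 3 other times, and on the first of these its change at 8 h was -0.07. The mitochondrial median became 0.18 at 4 h without the trend on GC and length and -0.0087 at 6 h on the averaged DMSO reference.

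The count of members higher by 1.3-fold at 4 h (2) became 4 with a pseudocount of 0.1 and 5 with centring. It became 5 with the trend removed, and 0 with either other DMSO reference or at 1.5-fold. The same count over the 11311 genes (1014) became 1240 with a pseudocount of 0.1, 1520 with centring and 1122 with the trend removed. It became 234 on the averaged DMSO reference and 313 at 1.5-fold, and it was not computed on the reference of the 3 other times. Members lower at 4 h (6) became 3 with the trend removed and 3 at 1.5-fold. They became 2 on the averaged DMSO reference and 1 on that of the 3 other times. Over all genes, those lower at 4 h (2251) became 1136 with the trend removed, 984 at 1.5-fold and 640 on the averaged DMSO reference. Members lower at 2 h (4) became 2 with centring, 1 with the trend removed and 1 at 1.5-fold. Over all genes, those lower at 2 h (442) became 318 with centring, 270 with the trend removed and 164 at 1.5-fold. The 1 member higher at 6 h and the 1 lower at 8 h became 0 on the averaged DMSO reference, and at 8 h also at 1.5-fold. Over all genes, those higher at 6 h (722) became 306 on the averaged DMSO reference. All genes lower at 8 h (163) became 141 on that reference and 63 at 1.5-fold. The cause was not tested.

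The fit on hours called 0 members under every alternative, with each library left out in turn (0 to 0) included, and at an unadjusted p under 0.05 between 0 and 5 in either direction. HU210 and DMSO libraries pair by hour, but the members were chosen on that contrast, so it was not tested over the 4 pairs. The labels give no replicate numbers, so no replicate block was fitted. The table holds no read counts per gene, and no counting error was computed.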
